A study of Rattus norvegicus with 6 samples.

Results

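The genes described here encode the enzymes and regulators of cholesterol and fatty acid synthesis. They were taken from a list of 29 gene symbols: 7 enzymes of the mevalonate pathway, 11 enzymes that turn its product into sterols, 5 regulators of the pathway and 6 enzymes of fatty acid synthesis. Of the 29 symbols, 28 had an entry among the 14607 genes of the expression table, and *Elovl6*, a fatty acid elongase, had none. Their transcripts were measured by RNA-Seq in both kinds of mural cell under study (the cells that wrap brain vessels) from the cortex of 4 to 5 week old male Sprague-Dawley rats, untreated and carrying no transgene. Vascular smooth muscle cells (VSMCs) came from arterioles held back on a filter, which were dissociated. Endothelial cells and microglia were removed from them with antibodies, and the VSMCs were then positively sorted with the lectin GSA-FITC. Mid-capillary pericytes (mcPCs) came from the filtrate, from which endothelial cells, microglia, astrocytes and oligodendrocytes had been removed with antibodies, so that they were what was left after a negative sort. Each cell type had 3 samples, from 3 isolations that each pooled several rats. The comparison asks which genes set apart the mural cells of the arteriole from those of the mid-capillary bed. Only the arterioles had a further digestion, with Liberase TM and trypsin, so cell type and handling cannot be told apart in it.

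Cholesterol is built from acetyl-CoA, which the mevalonate pathway turns into isoprenoid units and then into farnesyl diphosphate, and squalene made from this is closed into lanosterol and trimmed to cholesterol. The transcription factor SREBP-2 drives the genes of this route and SREBP-1 chiefly those of fatty acid synthesis. Both are held in the endoplasmic reticulum by the escort protein Scap and the Insig proteins when sterols are plentiful. The brain makes its own cholesterol, since plasma lipoproteins hardly cross the blood-brain barrier.

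The deposited values were the authors' means over the samples of a cell type, so no value per sample, no standard deviation and no test can be given here. Each difference is the log2 ratio of mean normalized counts in mcPCs over VSMCs, and its 95% interval (exact Clopper-Pearson, on the reads behind both means) covers counting error only, not the spread between samples. Summed over genes, a VSMC sample held 62.0 M reads on average and an mcPC sample 48.0 M. The smooth muscle markers *Acta2* and *Myh11* stood at 17233 and 5085 TPM (abundance scaled by transcript length and library total) in VSMCs. In mcPCs they stood at 20.2 and 4.60 TPM. The pan-mural marker *Pdgfrb* stood at 614 and 388 TPM, with 91756 and 206190 normalized counts (log2 ratio 1.17). The pan-mural markers *Cspg4* and *Rgs5* had log2 ratios of -0.19 and -0.06. Of 9 mural markers, *Pdgfrb* included, 5 were at least 2-fold higher in mcPCs (55.6%, against 22.0% of all genes). Another 2 were higher in VSMCs (22.2%, against 13.9%). A list of 36 erythrocyte genes, of which 23 were in the table, took 0.880% of TPM in VSMCs and 66.4% in mcPCs, and 22 of the 23 were at least 2-fold higher in mcPCs. For endothelial cells, 16 of 21 markers with values were at least 2-fold higher in mcPCs, with *Cldn5* at 0.643 TPM in VSMCs against 15.4, and the list took 0.0706% and 0.0963% of the TPM outside the erythrocyte list (698 and 323 TPM in all). The same direction held for 7 of 9 astrocyte, 6 of 7 oligodendrocyte, 5 of 5 neuron, 5 of 5 microglia and 3 of 4 fibroblast markers, whose summed levels in VSMCs and mcPCs were 317 and 238, 19.8 and 20.7, 3.23 and 22.3, 0.683 and 9.45, and 138 and 54.3 TPM. As shares of the TPM outside the erythrocyte list each of these lists was higher in mcPCs, among them the astrocyte list at 0.0321% and 0.0709% and the fibroblast list at 0.0140% and 0.0162%. Single genes made up most of some sums: *Glul* of the astrocyte list (289 and 214 TPM), *Esam* of the endothelial list (487 and 184 TPM) and *Col1a1* of the fibroblast list (114 and 31.6 TPM). Those sums are thus no measure of how many such cells were present. The part of these cells in the values below was not tested. In such bulk samples, fewer cells of a type and less RNA per cell cannot be told apart.

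TPM was higher in VSMCs for 26 of the 28 synthesis genes, but also for 86.3% of all genes. TPM, of which each library has the same total, is therefore used here to compare genes within a cell type, and normalized counts, whose median log2 ratio over all genes was 0.01, to compare cell types. On that scale 5 of the 28 synthesis genes were at least 2-fold higher in VSMCs (17.9%, against 13.9% of all genes) and 4 were at least 2-fold higher in mcPCs (14.3%, against 22.0% of all genes). Both shares lay near their background and are read as no result about the synthesis genes. The median log2 ratio was -0.21, with 16 genes below 0 and 12 above it, and 11 genes lay within 1.5-fold. The genes higher in VSMCs were *Insig1*, *Sc5d*, *Hmgcs1*, *Idi1* and *Pmvk*, and those higher in mcPCs were *Scd*, *Dhcr7*, *Tm7sf2* and *Srebf1*. The counting interval lay wholly past 2-fold for 4 of the former (all but *Pmvk*) and for *Scd* and *Dhcr7* of the latter.

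**Figure D1:**
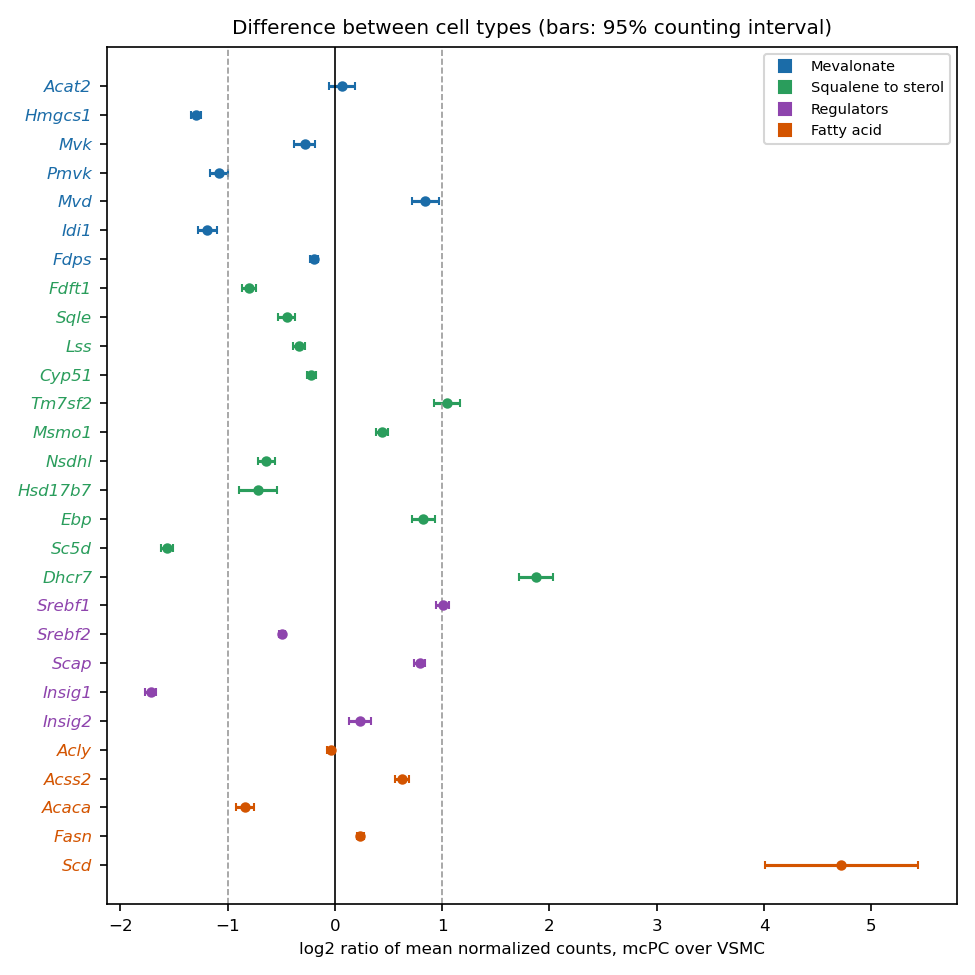
Log2 ratio of the authors' mean normalized counts, mcPC over VSMC, for each of the 28 synthesis genes; points are ratios, bars are 95% counting intervals and dashed lines mark 2-fold. *Insig1* lies farthest to the VSMC side at -1.72 and *Scd* farthest to the mcPC side at 4.72, while 11 genes lie within 1.5-fold.

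The order of abundance within each cell type was much alike. *Fdps*, which makes farnesyl diphosphate, had the highest TPM of the 28 in both, with 124 TPM (VSMCs) and 30.5 TPM (mcPCs), at percentiles 91.7 and 91.9 of all genes. *Scd* had the lowest in both. Across the 28 genes, Spearman's rho between the TPM of the cell types was 0.84, a description over genes, which are not replicates. The genes that changed place most were *Sc5d*, rank 10 in VSMCs and rank 21 in mcPCs, *Idi1*, rank 14 and rank 23, *Ebp*, rank 18 and rank 10, and *Scap*, rank 19 and rank 12. *Insig1* was rank 2 in VSMCs and rank 7 in mcPCs. Summed over the genes of a role, the mevalonate enzymes made up 35.6% of the synthesis genes' TPM in VSMCs and 31.2% in mcPCs, the sterol enzymes 31.5% and 34.5%, the regulators 23.5% and 21.4%, and the fatty acid enzymes 9.36% and 12.9%. These shares do not depend on how the cell types are scaled to each other.

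**Figure D2:**
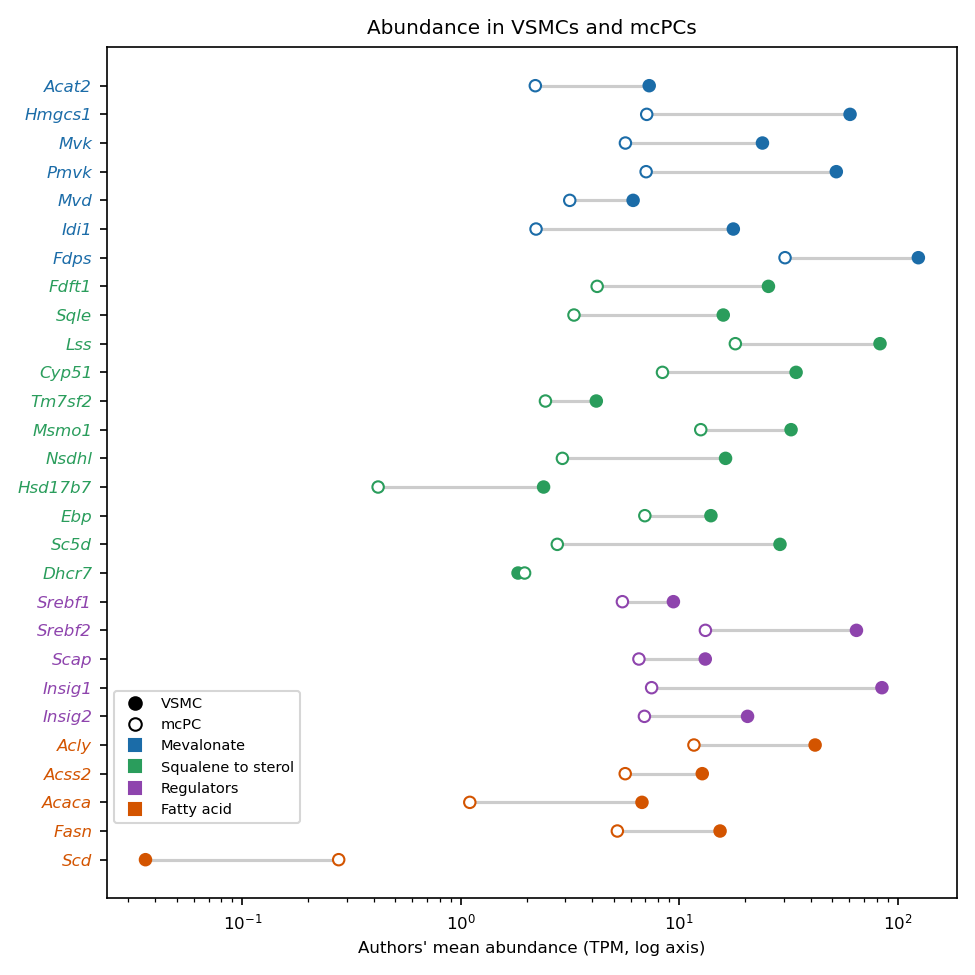
The authors' mean abundance in TPM (log axis) of each synthesis gene in VSMCs (filled) and mcPCs (open), coloured by role. All but *Dhcr7* and *Scd* have the higher TPM in VSMCs, and the distance between the points ranges from nearly none for *Dhcr7* (1.83 and 1.96 TPM) to 84.7 and 7.47 TPM for *Insig1*.

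Promoters are shown for 4 of the 5 genes that were higher in VSMCs and for *Dhcr7*, which had the largest mcPC excess apart from the sparsely read *Scd*, so that the letters can be set beside the direction of each gene. RefSeq gave 24 promoters for 23 of the 28 genes on the GRCr8 build, and none was given for *Sqle*, *Fdft1*, *Pmvk*, *Acaca* and *Fasn*. The windows are the 250 bases before the start of *Insig1* at chr4:8057770-8058019 (minus strand), of *Hmgcs1* at chr2:53382054-53382303 (plus strand), of *Sc5d* at chr8:51538278-51538527 (minus strand), of *Idi1* at chr17:66547525-66547774 (minus strand) and of *Dhcr7* at chr1:208444184-208444433 (plus strand). They are printed 5′ to 3′ on the gene's strand, and capitals mark matches on either strand to ACNCCAC (the core of a sterol regulatory element), CCAAT (the NF-Y box, ATTGG on the other strand), GGGCGG (the GC box bound by Sp1) or CACGTG (an E-box).
Insig1: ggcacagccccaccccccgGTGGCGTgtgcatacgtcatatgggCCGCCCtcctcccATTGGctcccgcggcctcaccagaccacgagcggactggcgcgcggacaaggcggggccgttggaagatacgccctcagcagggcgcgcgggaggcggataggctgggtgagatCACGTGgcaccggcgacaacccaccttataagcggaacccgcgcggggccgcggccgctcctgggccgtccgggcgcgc
Hmgcs1: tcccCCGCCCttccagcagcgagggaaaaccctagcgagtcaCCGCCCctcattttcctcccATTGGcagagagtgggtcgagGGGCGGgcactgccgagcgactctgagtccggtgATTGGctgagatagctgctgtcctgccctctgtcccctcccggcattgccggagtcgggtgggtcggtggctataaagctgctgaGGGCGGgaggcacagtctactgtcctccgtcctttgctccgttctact
Sc5d: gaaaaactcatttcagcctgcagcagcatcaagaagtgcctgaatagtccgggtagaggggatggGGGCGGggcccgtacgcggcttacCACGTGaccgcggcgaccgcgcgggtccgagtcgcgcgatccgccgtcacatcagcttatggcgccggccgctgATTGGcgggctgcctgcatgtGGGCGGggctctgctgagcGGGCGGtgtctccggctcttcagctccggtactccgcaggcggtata
Idi1: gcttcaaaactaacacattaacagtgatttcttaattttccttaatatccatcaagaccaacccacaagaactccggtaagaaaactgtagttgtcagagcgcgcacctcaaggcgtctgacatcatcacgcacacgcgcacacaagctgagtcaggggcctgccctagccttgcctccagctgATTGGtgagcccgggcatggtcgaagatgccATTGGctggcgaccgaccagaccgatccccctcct
Dhcr7: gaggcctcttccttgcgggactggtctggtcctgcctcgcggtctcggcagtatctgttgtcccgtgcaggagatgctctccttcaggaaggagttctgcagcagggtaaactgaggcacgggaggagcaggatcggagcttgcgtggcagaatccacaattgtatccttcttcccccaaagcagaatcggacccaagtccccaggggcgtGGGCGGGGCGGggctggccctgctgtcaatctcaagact

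The NF-Y box, whose factor is a known partner of SREBPs, was in 19 of the 24 promoters (79.2%), against 34.0% of the 33469 rat promoters and 34.6% of the 12254 promoters of genes in the expression table. All 4 of the printed promoters of genes higher in VSMCs held it, 193 bases before the start in *Insig1*, 188 and 133 bases in *Hmgcs1*, 87 bases in *Sc5d* and 66 and 35 bases in *Idi1*, and the printed window of *Dhcr7* did not. Among the other genes higher in mcPCs, the promoters of *Tm7sf2* and *Srebf1* held it and that of *Scd* did not. Whether the box goes with the direction of the difference was not tested, and these genes are too few to tell. The GC box was in 20 promoters (83.3%, against 30.5% of all and 55.1% of those of genes in the table) and overlapping copies lay in that of *Dhcr7*. The sterol element core was in 4 (16.7%, against 12.2% and 12.9%), those of *Insig1*, *Srebf2*, *Ebp* and *Acat2*. The E-box was in 3 (12.5%, against 5.59% and 7.65%), those of *Insig1*, *Sc5d* and *Scap*. These are letter matches in a short window and no measure of binding.

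The regulators differed in opposite directions. *Insig1* (ENSRNOG00000006859), whose protein holds SREBPs back when sterols are plentiful, is itself an SREBP target. It had 5421 normalized counts in VSMCs and 1650.05 in mcPCs, 3.29-fold higher in VSMCs (log2 ratio -1.72, interval -1.77 to -1.67). Its relative *Insig2*, which does the same work without needing SREBP for its expression, had 465 and 546 normalized counts (log2 ratio 0.23, 0.13 to 0.34). The balance of the pair therefore differed: *Insig1* had 4.12 times the TPM of *Insig2* in VSMCs and 1.08 times in mcPCs. *Srebf1* (ENSRNOG00000003463), encoding SREBP-1, had 1119 and 2244 normalized counts, just at the 2-fold limit toward mcPCs (log2 ratio 1.003, 0.945 to 1.062). *Srebf2*, encoding SREBP-2, had 8586 and 6095 normalized counts and leaned the other way (log2 ratio -0.49, -0.52 to -0.47). *Srebf2* was the more abundant of the pair in both cell types, with 6.89 times the TPM of *Srebf1* in VSMCs and 2.40 times in mcPCs. The escort gene *Scap* had 1504 and 2599.8 normalized counts (log2 ratio 0.79, 0.74 to 0.84). Against *Scap*, *Insig1* stood at 6.44 times the TPM in VSMCs and 1.143 times in mcPCs. Over the 5 regulators the median log2 ratio was 0.23.

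Of the 7 mevalonate enzymes, 3 were at least 2-fold higher in VSMCs, 4 lay within 2-fold and none was 2-fold higher in mcPCs (42.9% and 0%, against 13.9% and 22.0% of all genes), with a median log2 ratio of -0.28. *Hmgcs1* (ENSRNOG00000016552), the cytosolic HMG-CoA synthase at the entry of the pathway, had 5274 normalized counts in VSMCs and 2146.5 in mcPCs, 2.46-fold higher in VSMCs (log2 ratio -1.30, -1.34 to -1.25). *Idi1* (ENSRNOG00000016690), which interconverts the isoprenoid building blocks, had 1332 and 584 (log2 ratio -1.19, -1.28 to -1.10). *Pmvk* (ENSRNOG00000020696), phosphomevalonate kinase, had 1339 and 633, and its interval reached the 2-fold limit (log2 ratio -1.082, -1.168 to -0.997). The other mevalonate enzymes did not reach 2-fold. *Mvk*, the kinase just before *Pmvk*, had a log2 ratio of -0.28, and *Fdps*, after *Idi1*, one of -0.20. *Mvd*, the decarboxylase that follows *Pmvk*, lay on the mcPC side at 0.84 (0.72 to 0.97), with 265 and 476 normalized counts. *Acat2*, the cytosolic thiolase, was at 0.06, and of the 28 genes it alone had an interval that held 0 (-0.06 to 0.18).

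The 11 enzymes from squalene to cholesterol had a median log2 ratio of -0.33, with 7 below 0 and 4 above it, and the genes past 2-fold lay at both ends. *Sc5d* (ENSRNOG00000008305), the sterol C5-desaturase, had 3907 normalized counts in VSMCs and 1319.55 in mcPCs, 2.96-fold higher in VSMCs (log2 ratio -1.57, -1.62 to -1.51). *Dhcr7* (ENSRNOG00000020776), the reductase that takes the product of *Sc5d*, had 122 and 448, 3.67-fold higher in mcPCs (log2 ratio 1.88, 1.72 to 2.03). Consecutive steps of the route thus differed in opposite directions: the TPM of *Sc5d* was 15.8 times that of *Dhcr7* in VSMCs and 1.41 times in mcPCs. *Hmgcs1*, at the pathway's entry, had 33.1 times the TPM of *Dhcr7* in VSMCs and 3.62 times in mcPCs. *Dhcr7* was sparse, with 171 reads per VSMC sample and 329 per mcPC sample, and at 1.83 TPM it lay at percentile 23.1 of all genes in VSMCs. *Tm7sf2* (ENSRNOG00000020989), a sterol C14-reductase, had 249 and 514 normalized counts (log2 ratio 1.04, 0.92 to 1.17), so that its interval crossed the 2-fold limit.

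Early sterol enzymes leaned to VSMCs within 2-fold. *Fdft1*, squalene synthase, had a log2 ratio of -0.80 (-0.86 to -0.74), *Sqle*, the squalene epoxidase that is a rate-limiting step, one of -0.45 (-0.53 to -0.37), and *Cyp51*, lanosterol demethylase, one of -0.22 (-0.26 to -0.18). *Sqle* had 0.621 times the TPM of *Fdft1* in VSMCs and 0.783 times in mcPCs. Among the enzymes that strip the methyl groups, *Nsdhl* and *Hsd17b7* were on the VSMC side (-0.64 and -0.71) and *Msmo1* on the mcPC side (0.44, 0.39 to 0.50). *Ebp*, the sterol isomerase just before *Sc5d*, was at 0.83 (0.72 to 0.93). *Lss*, lanosterol synthase, was at -0.33 (-0.39 to -0.27), its mean effective length was 751 bases in VSMCs and 966 in mcPCs, and the part of length in its ratio was not tested. From counts scaled without the erythrocyte list, which carry no length correction and move the median of all genes to 0.18, its log2 ratio was 0.04. Lengths differed by over 5% between cell types in *Lss*, *Fdps* and *Srebf2* of the 28 genes (8.06% of all genes).

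The 5 fatty acid enzymes with values had a median log2 ratio of 0.24. Of the enzymes that supply cytosolic acetyl-CoA, *Acly*, ATP citrate lyase, was close between cell types, at -0.04 (-0.07 to -0.01) on 4965 and 4832 normalized counts. *Acss2*, which uses acetate, was 1.54-fold higher in mcPCs, at 0.63 (0.56 to 0.69) on 980.5 and 1513. *Acly* had 3.29 times the TPM of *Acss2* in VSMCs and 2.06 times in mcPCs. *Acaca*, acetyl-CoA carboxylase and the committed step, leaned to VSMCs (-0.84, -0.92 to -0.75), with 1202 and 673 normalized counts. *Fasn*, fatty acid synthase, had 3972 and 4685 (log2 ratio 0.24, 0.20 to 0.27). *Scd* (ENSRNOG00000013552), a stearoyl-CoA desaturase, had 4.30 normalized counts in VSMCs and 113 in mcPCs (log2 ratio 4.72, 4.01 to 5.44). It rested on 6.18 reads per VSMC sample and 87.03 per mcPC sample, at 0.036 and 0.276 TPM, and with 10 added to both means the log2 ratio was 3.11. Its near paralog *Scd2*, named after its values were seen, was far more abundant within each cell type, at 29.6 and 20.3 TPM. *Scd2* had 4139 and 9890 normalized counts (log2 ratio 1.26), so its direction differed between the scales. How the estimate split reads between the pair was not tested, and the small *Scd* value is uncertain in that respect.

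How firm these directions are depends on the scale. Mean TPM as it stands moved the median of all genes to a log2 ratio of -1.79. It put 23 of the 28 synthesis genes at least 2-fold higher in VSMCs, against 74.8% of all genes. All but *Scd* and *Dhcr7* then lay on the VSMC side, among them *Tm7sf2* and *Srebf1*, at -0.77 and -0.78. Relative to the median gene of each scale, 5 of the 28 genes were at least 2-fold higher in VSMCs on each of the scales drawn, and 3 or 4 were higher in mcPCs. The TPM scales differ from each other only by a constant, as do the counts scaled by a total. Their agreement once the median is taken off was therefore fixed in advance. *Scd* and *Dhcr7* were above 0 on each of these scales and *Insig1*, *Sc5d*, *Hmgcs1*, *Idi1* and *Pmvk* below it.

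**Figure D3:**
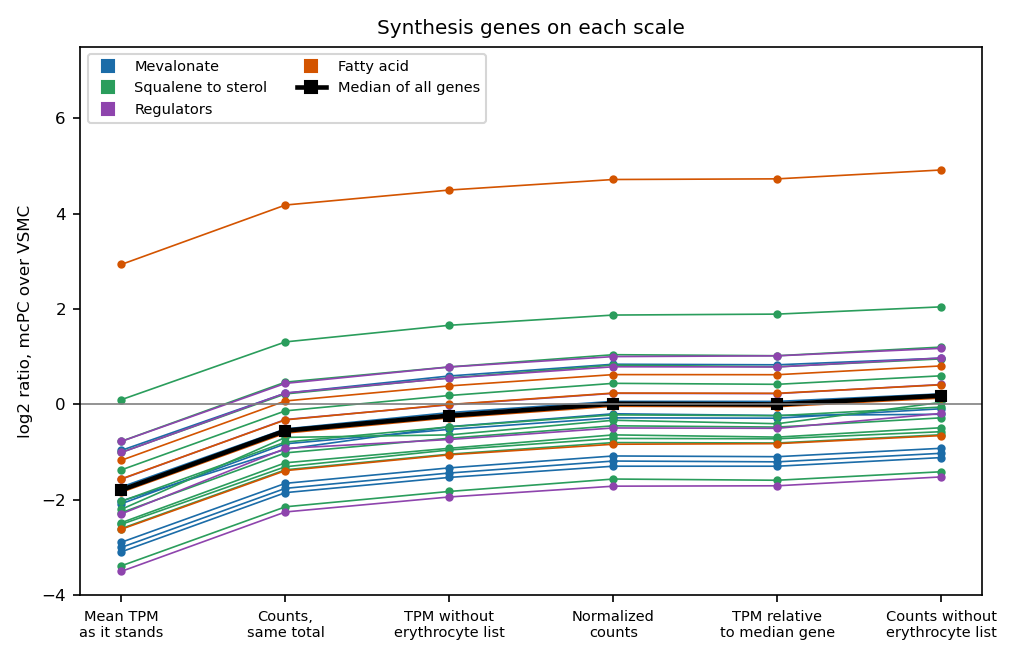
Log2 ratio of mcPC over VSMC for each synthesis gene (thin lines, coloured by role) and for the median of all genes (black squares) on each scale. The x axis is nearly in the order of that median. Only normalized counts (0.01) stand before TPM relative to the median gene (0). The lines run nearly parallel, from a median of -1.79 on mean TPM as it stands to 0.18 on counts scaled without the erythrocyte list.

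Genes that work next to these enzymes were taken from 5 further lists. Of 31 other synthesis genes 28 had values, with 6 at least 2-fold higher in mcPCs (21.4%, near the 22.0% of all genes), 2 higher in VSMCs (7.14%, against 13.9%) and a median log2 ratio of 0.68. *Me1*, the malic enzyme that supplies NADPH, had 1964 normalized counts in the VSMC mean against 181 in the mcPC mean (log2 ratio -3.44). This was a larger difference toward VSMCs than any among the 28 genes above. *Hacd1*, a dehydratase of fatty acid elongation, was at -1.59. Toward mcPCs, *Aacs*, which activates acetoacetate, was at 2.28 and *Hsd17b12*, of fatty acid elongation, at 1.34.

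Of 18 genes for sterol export, storage and turnover, 7 were at least 2-fold higher in mcPCs (38.9%, against 22.0% of all genes) and 2 in VSMCs (11.1%, against 13.9%), with a median log2 ratio of 0.85. *Nr1h3*, encoding the oxysterol-sensing nuclear receptor LXR alpha, was at 2.65 and *Cyp46a1*, cholesterol 24-hydroxylase, at 2.51, the latter on 0.606 and 0.997 TPM. *Ch25h*, which makes 25-hydroxycholesterol, had 3126 normalized counts in the VSMC mean against 352 in the mcPC mean (log2 ratio -3.15). *Mylip*, a ubiquitin ligase for lipoprotein receptors, was at -1.01. None of the 14 genes that use isoprenoids for prenylation and other products was past 2-fold. Of all genes, 13.9% were past it toward VSMCs and 22.0% toward mcPCs. The isoprenoid-using genes ran from *Pggt1b* (-0.91) and *Icmt* (-0.70) to *Rabggta* (0.52) and *Fnta* (0.56), with a median of -0.02.

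**Figure D4:**
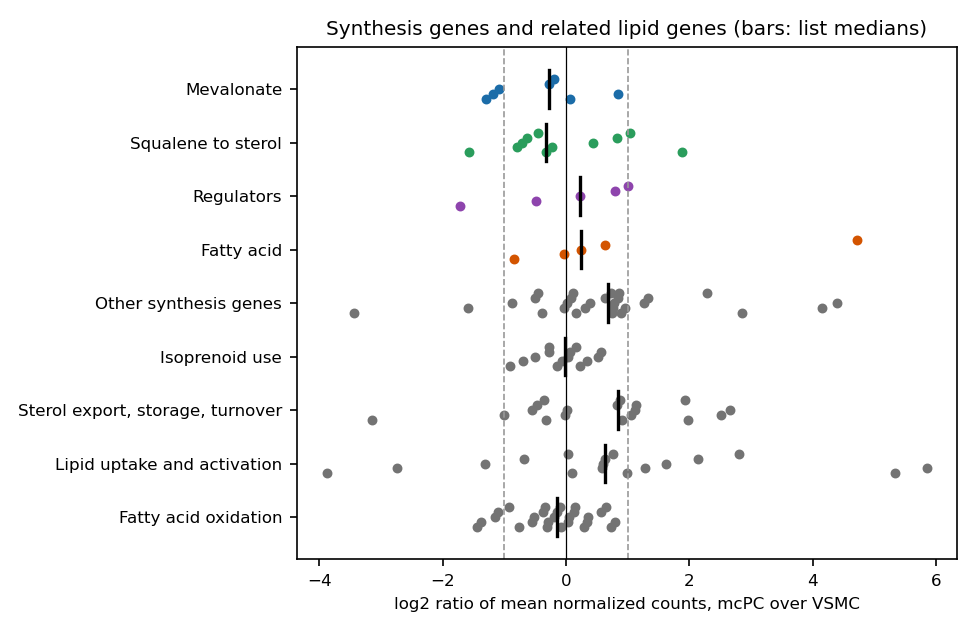
Log2 ratio of mean normalized counts, mcPC over VSMC, for the synthesis genes by role (coloured) and for 5 lists of related lipid genes (grey); each point is a gene, black bars are list medians and dashed lines mark 2-fold. Medians run from -0.33 for the squalene to sterol enzymes to 0.85 for sterol export, storage and turnover, and the 14 isoprenoid-using genes lie inside the 2-fold lines. Of all genes, 13.9% lie past the line toward VSMCs and 22.0% past that toward mcPCs.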

How the data were processed

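Poly(A)+ RNA from 100 ng of total RNA per sample (RNA integrity numbers 6.40 to 8.50) was made into stranded libraries and each library was sequenced 4 times. Per the study's methods and the submitters' processing notes, the authors trimmed the reads, estimated transcript abundance and counts with Salmon 0.8.0 against Ensembl Rnor_6.0 transcripts, summed them per gene, normalized with DESeq2 and kept genes with reads in every sample. The deposited table of 14607 genes gives, for each cell type, the authors' mean TPM, the authors' mean expected counts (estimated counts per run, 12 runs per cell type), the mean normalized counts (a signal the authors scaled with DESeq2) and the mean effective transcript length. Its other columns hold the authors' own comparison (fold change, its error and p-values) and were not used. Reads behind a value are the mean count per run times 12, and 71.4% (VSMC) and 72.5% (mcPC) of these came within 0.02 of a whole number.

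Log2 ratios of mean normalized counts were taken without a pseudocount, and genes past 2-fold were counted. Intervals were checked on simulated counts that held counting error alone. That check covers neither the spread between samples nor sparsely read genes such as *Scd*. Reference promoters (RefSeq, GRCr8) were matched by gene identifier. Alternatives were other scalings, a pseudocount of 10, minimum levels and other folds. The genes and lists were chosen with earlier results of these data known. All 29 symbols are named. From each related list the 2 genes with the highest and the 2 with the lowest ratio among those with at least 100 reads in each cell type are named, and all genes past 2-fold where a direction has 5 or fewer. Marker genes are named only by list, by defining genes and where a single gene made up most of a list's sum. A single gene of the related lists was left out of its list and is not reported here. Values were computed in Python 3.11.15 with scipy 1.17.1, pandas 2.3.3 and numpy 2.4.6 and drawn with matplotlib 3.10.9.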

Additional observations from a re-analysis of the deposited data

How the results depend on the processing

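On mean TPM as it stands, 23 of the 28 synthesis genes exceeded 2-fold toward VSMCs and 1 toward mcPCs (74.8% and 8.17% of all genes), and the median log2 ratio was -2.03. Every gene above 0 on normalized counts except *Scd* and *Dhcr7* changed direction, among them *Tm7sf2* (-0.77) and *Srebf1* (-0.78). Counts scaled to the same total gave 10 and 2 genes (28.8% and 15.5% of all genes) and a median of -0.74. Scaled without the erythrocyte list, counts gave 4 and 4 genes (11.4% and 24.6%), with *Pmvk* at -0.92, and a median of -0.0063. TPM scaled so gave 7 and 2 genes (18.4% and 18.7%), with *Tm7sf2* and *Srebf1* at 0.79 and 0.78, and a median of -0.47. The median of all genes moved in the same way, to -1.79, -0.55, 0.18 and -0.23 on these scales. At 1.5-fold, 9 genes lay toward VSMCs and 8 toward mcPCs (23.4% and 30.2% of all genes), and at 3-fold 1 and 2 (7.9% and 15.2%). With TPM relative to the median gene, 10 added to each mean, a minimum of 0.8 TPM in VSMCs or of 100 reads in each cell type, 5 genes lay past the limit toward VSMCs and 3 or 4 toward mcPCs. In that order, the shares of all genes toward VSMCs were 14.2%, 13%, 15.8% and 13.4%. Toward mcPCs they were 21.8%, 19.5%, 13.1% and 15.9%, so both minimum levels lowered the background there. Leaving out single samples was not run, since the values are means. No paired analysis was possible because the columns carry no value per sample, so the letters shared by sample titles could not be used. Depth limits *Scd* most, and no spread between samples is given with any value.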

Other observations

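Uptake and oxidation are the lipid routes that stand beside synthesis. Of 17 uptake and activation genes with values (19 listed), 6 were at least 2-fold higher in mcPCs (35.3%, against 22.0% of all genes) and 3 in VSMCs (17.6%, against 13.9%), with a median log2 ratio of 0.63. *Fabp3*, a fatty acid binding protein of muscle, had 895 normalized counts in the VSMC mean against 60.9 in the mcPC mean (log2 ratio -3.88). *Vldlr*, a receptor for triglyceride-rich lipoproteins, had 7687 and 1154 normalized counts (-2.74), and *Lpl*, lipoprotein lipase, had 13202 and 5321.5 (-1.31). In the other direction, *Lrp8*, a receptor close to *Vldlr*, had 30.2 and 1744 normalized counts (5.85), at 0.145 and 2.43 TPM. The fatty acid transporter *Cd36* had 27.9 and 1130 normalized counts (5.34), at 0.627 and 7.25 TPM. Both receptors are of one family, and they lay at opposite ends of the list. The mcPC libraries also carried more endothelial and blood cell transcripts, whose part in *Cd36* and *Lrp8* was not tested. Both genes, like *Cyp46a1* and *Scd* above, lay below 0.8 TPM in VSMCs. The study discarded genes below that level, which it set from markers of other cell types.

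Of 27 fatty acid oxidation genes with values (28 listed), 4 were at least 2-fold higher in VSMCs (14.8%, near the 13.9% of all genes) and none in mcPCs (against 22.0%), with a median log2 ratio of -0.15. The 4 were *Ppara*, the fatty acid sensing nuclear receptor (-1.45), *Cpt1a*, which admits fatty acids to mitochondria (-1.38), and the acyl-CoA dehydrogenases *Acadm* (-1.15) and *Acadl* (-1.10). *Acads*, the dehydrogenase for short chains, lay at 0.79 and *Cpt1c*, the brain form of the carnitine transferase, at 0.73.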
